A study of Homo sapiens with 8 samples.

Results

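The interleukin-6 family is a group of secreted cytokines that signal through a shared receptor chain, gp130, encoded by IL6ST. A ligand first contacts gp130 together with a ligand-specific chain: IL6R for interleukin-6, LIFR for leukaemia inhibitory factor, IL11RA for interleukin-11, and OSMR or LIFR for oncostatin M. The kinase JAK1, bound to the receptor tails, then phosphorylates the transcription factor STAT3, and STAT3 switches on SOCS3, which binds the receptor and JAK1 and shuts the signal down. Interleukin-6 is a classical component of the senescence-associated secretory phenotype (SASP), the mixture of cytokines, growth factors and proteases that senescent fibroblasts release.

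The genes described here are 10 members of this family and its pathway, found by gene symbol among the 27945 genes of the count table: the cytokines IL6, LIF and IL11, the receptor chains IL6ST, IL6R, LIFR and OSMR, the kinase JAK1, the transcription factor STAT3 and the inhibitor SOCS3. They were chosen with earlier results of these data known. Nascent transcription was measured by fastGRO-seq, a run-on assay in which engaged RNA polymerases in isolated nuclei extend their transcripts with a labelled nucleotide, so that a count reflects ongoing transcription and not the amount of mature mRNA. The cells were IMR90, a widely distributed strain of primary diploid fibroblasts from human embryonic lung, carrying an oncogenic RAS fused to the oestrogen receptor (ER:RAS), which 4-hydroxytamoxifen activates to induce senescence. There were 4 groups of 2 libraries each. The control group is labelled as wild type and control, with no shRNA named, and the senescent groups carried a control shRNA (shControl), an shRNA against METTL3 (shMETTL3) or an shRNA against METTL14 (shMETTL14), the catalytic and RNA-binding subunits of the m6A methyltransferase complex. Senescent shControl and control cells therefore differ in the shRNA vector as well as in RAS activation, and these cannot be told apart. A single hairpin per target was used. The study calls the fastGRO-seq experiments on control and senescent cells biologically independent, the labels do not say how the cultures of a group were separated, and p-values measure only the spread between these libraries.

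All 10 members passed the filter on low counts, among 12844 genes that did. Library totals ran from 14897360 to 20306299 counts, of which 86.2 to 92.5% lay on 21 ribosomal RNA rows, leaving 1513930 to 2048475 counts on all other genes. Fibroblast markers were present, with all 10 passing the filter, whereas none of 5 epithelial markers did. The fibroblast list summed to 48935 and 46429 raw counts in control, 26404 and 29408 in shControl, 34520 and 31777 in shMETTL3, and 16874 and 19157 in shMETTL14 libraries. Of 5 endothelial markers 1 passed, TEK, and the list summed to 115 and 133 raw counts in control, 43 and 52 in shControl, 55 and 75 in shMETTL3, and 16 and 29 in shMETTL14 libraries. Of 6 leukocyte markers 1 passed, CD68, and the list summed to 18 and 21, 64 and 48, 46 and 33, and 52 and 45, with CD3E at 0. The proliferation marker MKI67 had 224 and 201 raw counts in control, 25 and 53 in shControl, 1 and 0 in shMETTL3, and 1 and 3 in shMETTL14 libraries. The marker shifts are given beside each comparison, and their part in the results was not tested. METTL3 had 77 and 47 counts in shControl and 16 and 19 in shMETTL3 libraries (log2 fold change -2.04, SE 0.31, adjusted p = 1.79e-05). METTL14 had 24 and 28 counts in shControl and 18 and 14 in shMETTL14 libraries, a difference that did not pass the test (-0.86, SE 0.34, adjusted p = 0.0763). An shRNA acts on the finished transcript, so nascent counts of its target are not a direct measure of the knockdown. In bulk cultures, fewer transcribing cells and less transcription per cell cannot be told apart.

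The promoters of IL6, IL11 and OSMR are shown first, because these members were called higher in senescent shControl than in control cells and lower after either knockdown, in comparisons that share the shControl libraries. RefSeq windows on GRCh38.p14 were matched for 9 of the 10 members, giving 14 windows, and LIF had no entry. Each sequence is the 250 bases before the annotated start, read 5′ to 3′ on the gene's strand, in lower case with matches to the searched motifs in capitals. The motifs, searched on both strands, were GGGA and TTCC 2 bases apart (NF-kB), TGANTCA (AP-1), TTCNNNGAA (STAT), TTGCNNAA (C/EBP) and ACGTCA (CRE). The windows shown lie at chr7:22726950-22727199 for IL6 (plus strand), chr19:55370464-55370713 for IL11 (minus strand) and chr5:38845762-38846011 for OSMR (plus strand).
IL6: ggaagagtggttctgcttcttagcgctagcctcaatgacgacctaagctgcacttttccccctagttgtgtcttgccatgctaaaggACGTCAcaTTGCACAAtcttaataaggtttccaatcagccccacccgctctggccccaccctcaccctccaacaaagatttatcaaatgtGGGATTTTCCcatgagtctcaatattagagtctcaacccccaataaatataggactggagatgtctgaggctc
IL11: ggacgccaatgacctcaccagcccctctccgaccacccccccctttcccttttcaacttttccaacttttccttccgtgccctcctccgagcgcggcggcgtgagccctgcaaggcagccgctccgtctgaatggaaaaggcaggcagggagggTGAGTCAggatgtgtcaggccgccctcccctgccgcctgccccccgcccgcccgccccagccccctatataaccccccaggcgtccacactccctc
OSMR: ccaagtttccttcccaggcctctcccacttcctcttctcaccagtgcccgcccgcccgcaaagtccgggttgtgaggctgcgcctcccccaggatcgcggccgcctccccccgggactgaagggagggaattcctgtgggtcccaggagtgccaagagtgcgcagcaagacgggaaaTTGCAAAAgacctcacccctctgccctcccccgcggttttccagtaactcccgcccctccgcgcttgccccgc

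The IL6 window held an NF-kB match, GGGATTTTCC, 73 to 64 bases before the start, a C/EBP match, TTGCACAA, at 155 to 148 bases, and a CRE match, ACGTCA, at 163 to 158 bases. Of all 35116 promoter windows of the same length, 1.4% held the NF-kB letters, 9.05% the C/EBP letters and 7.1% the CRE letters. The IL11 window held an AP-1 match, TGAGTCA, 96 to 90 bases before the start, which 6.57% of windows share, and the OSMR window a C/EBP match, TTGCAAAA, at 73 to 66 bases. Among the other members, STAT matches stood in 2 of the 3 LIFR windows (6.57% of all windows), 1 of those also held a C/EBP match, and 1 of the 3 JAK1 windows held a CRE match, while no searched letters were found in the windows of IL6ST, IL6R, STAT3 and SOCS3. The SOCS3 windows lie at chr17:78360926-78361175 and chr17:78359668-78359917, and bases outside them were not searched. Whether a window adjoins the start of the counted transcript was not checked, so absent matches describe these windows only. A match describes the letters and no binding was measured here.

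The first comparison asked how transcription of the family differed between senescent shControl and control cells. The 3 cytokine genes rose, IL11 and IL6 most, together with the inhibitor SOCS3 and the receptor chain OSMR. The receptor chain LIFR fell, so that the chains for oncostatin M and leukaemia inhibitory factor moved in opposite directions, while the shared chain IL6ST, JAK1 and STAT3 differed by 1.42-fold or less. Under edgeR's quasi-likelihood test with Benjamini-Hochberg adjustment over all 12844 genes, 6 of the 10 members were higher and 2 lower. Over all genes tested, 13.3% were called higher and 13.3% lower. The median log2 fold change of the members was 0.93, against -0.03 for all genes tested. Scaling by total counts alone would shift the median of all genes to -0.53 and the calls from 1711 higher and 1702 lower to 752 and 5007, so changes are given relative to the bulk of genes. Of the 10 fibroblast markers 6 fell and 1 rose in the same comparison (median log2 fold change -0.85). CD68 (2.05, SE 0.33) and the senescence marker CDKN1A (1.12, SE 0.15) rose, and TEK (-1.04, SE 0.25) and MKI67 (-2.06, SE 0.24) fell, TEK not without shControl replicate 1 (adjusted p = 0.0597).

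Among the cytokines, IL6 (chr7:22766761-22771621 of hg19, plus strand) had 6.2 and 14.8 normalized counts in the control libraries and 240.0 and 199.2 in the shControl libraries. Normalized counts are raw counts scaled to the mean effective library size of the 8 libraries, and the raw control counts of IL6 were only 7 and 17. The difference was 20.6-fold (log2 fold change 4.36, SE 0.28, adjusted p = 1.54e-12), and 34.8-fold without control replicate 2 (log2 fold change 5.12). IL11 (chr19:55875750-55881831, minus strand), a cytokine linked to fibroblast activation, went from 13.3 and 7.0 normalized counts in control to 280.2 and 263.8 in shControl libraries. With all libraries this was the largest change of any member, 26.6-fold (log2 fold change 4.73, SE 0.26, adjusted p = 7.88e-14). LIF (chr22:30636436-30642840, minus strand) started from a higher level, 199.3 and 128.9 normalized counts in control libraries, and reached 634.9 and 545.3, or 3.6-fold more (log2 fold change 1.85, SE 0.18, adjusted p = 4.56e-09). The 2 groups were far apart for each cytokine, with no overlap of libraries, for which no share of all genes is given.

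Per kilobase of gene span, which adjusts for length but not for where in a gene the reads lie, LIF was the most transcribed member in control cells, at 25.6 ± 7.8 normalized counts per kb (SD, n = 2), above 96.8% of the genes tested. IL6 and IL11 lay at 2.16 ± 1.25 and 1.66 ± 0.73 per kb in control cells, above 60.3% and 50.7% of genes, and did not differ beyond their spread. In senescent shControl cells IL6 and IL11 stood side by side at 45.2 ± 5.9 and 44.7 ± 1.9 per kb, above 97.7% and 97.6% of genes, and LIF at 92.1 ± 9.9 per kb. The level ratio of LIF to IL6 per kb accordingly went from 24.4 and 6.61 in the control libraries to 2.01 and 2.08 in the shControl libraries. These levels placed all 3 cytokine genes in the upper ranks of nascent transcription in senescent cells, and only LIF in control cells.

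SOCS3 (chr17:76352858-76356160, minus strand), the feedback inhibitor, had 39.0 and 37.4 normalized counts in control and 144.2 and 116.9 in shControl libraries, a 3.4-fold rise (log2 fold change 1.77, SE 0.22, adjusted p = 5.1e-07). STAT3 (chr17:40465343-40540513, minus strand), its activator, went the other way, from 309.1 and 282.1 to 171.4 and 242.6 normalized counts (log2 fold change -0.51, SE 0.16, adjusted p = 0.0169). The STAT3 call was lost without shControl replicate 1 (-0.28, adjusted p = 0.399), without control replicate 1 (-0.44, adjusted p = 0.146) and in DESeq2 (adjusted p = 0.12). JAK1 (chr1:65298906-65533429, minus strand) had 371.0 and 371.0 normalized counts in control and 410.2 and 405.1 in shControl libraries, and did not pass the test (log2 fold change 0.14, SE 0.13, adjusted p = 0.493).

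Receptor chains split. OSMR (chr5:38845960-38935743, plus strand) had 355.1 and 386.6 normalized counts in control and 1049 and 981.6 in shControl libraries, a 2.74-fold rise (log2 fold change 1.45, SE 0.13, adjusted p = 2e-09). LIFR (chr5:38475065-38595507, minus strand), which lies beyond OSMR-AS1 on the same chromosome arm, dropped from 212.5 and 225.5 to 80.4 and 89.0 normalized counts, or 2.58-fold lower (log2 fold change -1.37, SE 0.17, adjusted p = 5.95e-07). The OSMR to LIFR ratio per kb was 2.24 and 2.3 in the control libraries and 17.5 and 14.8 in the shControl libraries. OSMR-AS1 itself, which starts 29 bases from OSMR on the other strand, had 69 and 62 raw counts in control and 59 and 50 in shControl libraries and did not pass the test (adjusted p = 0.773). After shMETTL3 it had 33 and 55 raw counts and no call (adjusted p = 0.15), and after shMETTL14, with 28 and 25, it fell (-1.20, SE 0.28, adjusted p = 0.00306), a call lost without shControl replicate 1 (adjusted p = 0.0619).

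IL6ST (chr5:55230925-55290821, minus strand), the shared chain, had 851.0 and 964.9 normalized counts in control and 1304 and 1093 in shControl libraries. Its 1.32-fold rise was small and close to the threshold (log2 fold change 0.40, SE 0.14, adjusted p = 0.0344), and it was lost without control replicate 1 (0.32, adjusted p = 0.298), control replicate 2 (0.50, adjusted p = 0.0793) or shControl replicate 1 (0.28, adjusted p = 0.377) and in DESeq2 (adjusted p = 0.0503). IL6R (chr1:154377669-154441926, plus strand), the interleukin-6 chain, was the least transcribed member per kb in control and shControl cells, at 0.849 ± 0.300 and 0.545 ± 0.036 normalized counts per kb (SD, n = 2). It had 68.2 and 40.9 normalized counts in control and 36.6 and 33.4 in shControl libraries, which did not pass (log2 fold change -0.64, SE 0.29, adjusted p = 0.11). In order of level per kb, senescent shControl cells transcribed LIF most, then IL6, IL11 and SOCS3 (39.5 ± 5.9 per kb), whose levels did not differ beyond their spread, then IL6ST (20.01 ± 2.49), OSMR (11.3 ± 0.5), STAT3 (2.75 ± 0.67), JAK1 (1.74 ± 0.02), and last LIFR (0.703 ± 0.051) and IL6R.

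**Figure D1:**
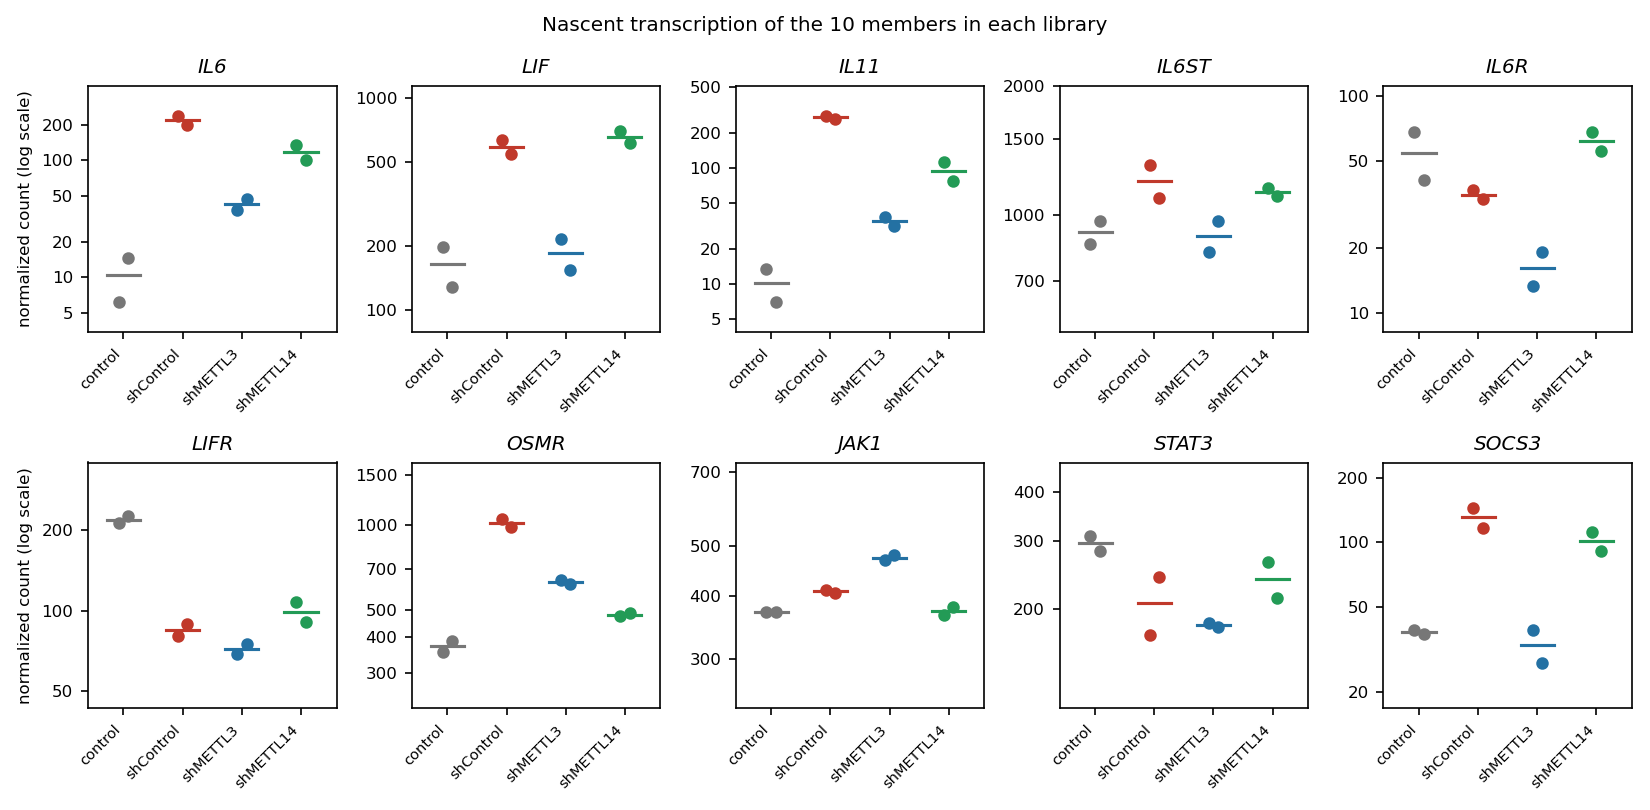
Normalized counts of the 10 members in each of the 8 libraries, on a log scale with its own range in each panel; points are libraries, bars are group means, and shControl, shMETTL3 and shMETTL14 cells are senescent. IL6 and IL11 sit lowest in control libraries and highest in shControl libraries, whereas LIF and SOCS3 are high in shControl and shMETTL14 and low in control and shMETTL3 libraries.

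The second comparison, shMETTL3 with shControl in senescent cells, addressed whether the methyltransferase is needed for transcription of senescence genes. All 3 cytokine genes and SOCS3 fell by 3.19-fold or more, OSMR fell less, and IL6ST and IL6R were lower with calls close to the threshold. LIFR, JAK1 and STAT3 did not pass, and no member rose. Thus 7 of 10 members were called lower and 0 higher by edgeR. Over all genes tested, 11.2% were called lower and 12.2% higher. The median log2 fold change was -0.90 for the members and -0.03 for all genes tested. By unadjusted p, 0 members were higher at a level of 0.05 under edgeR, and DESeq2 also called 0 higher. Of the fibroblast markers 2 fell and 1 rose after shMETTL3 (median -0.03), and CD68 was lower with a call that 7 of 17 alternatives lost (-0.84, SE 0.30, adjusted p = 0.0401). Of the 6 senescence markers 1 was called higher and 2 lower, MKI67 and the nuclear lamina gene LMNB1, LMNB1 from 11 and 15 raw counts in shControl to 2 and 0.

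IL11 had 38.0 and 31.3 normalized counts in shMETTL3 libraries, against 280.2 and 263.8 in shControl, a 7.84-fold fall (log2 fold change -2.97, SE 0.22, adjusted p = 1.5e-10). IL6 had 38.0 and 46.5 in shMETTL3 libraries, 5.17-fold lower (-2.37, SE 0.22, adjusted p = 1.43e-08). LIF, at 215.5 and 154.8 normalized counts, was 3.19-fold lower (-1.67, SE 0.18, adjusted p = 8.44e-08). SOCS3, at 39.0 and 27.5 normalized counts, was 3.93-fold lower (-1.97, SE 0.23, adjusted p = 4.83e-07). None of these shMETTL3 libraries overlapped a shControl library, for which no share of all genes is given. The calls held in each alternative in which the gene could be tested.

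OSMR had 636.1 and 617.1 normalized counts in shMETTL3 libraries, 1.62-fold below shControl (log2 fold change -0.70, SE 0.13, adjusted p = 0.00024). With scaling by total counts alone the OSMR difference was -0.08 (adjusted p = 0.729), so its fall holds relative to the bulk of genes, whose median that scaling moves to 0.58. IL6R had 13.3 and 19.0 normalized counts, from 13 and 20 raw counts (log2 fold change -1.10, SE 0.36, adjusted p = 0.0269), and IL6ST 815.7 and 965.6 (-0.43, SE 0.14, adjusted p = 0.028). DESeq2 called neither, the IL6R call was lost without either shControl library or shMETTL3 replicate 1 (adjusted p = 0.0886 to 0.131), and the IL6ST call without shControl replicate 1 (adjusted p = 0.309) or shMETTL3 replicate 1 (adjusted p = 0.104). Under scaling by total counts alone, calls over all genes went from 1573 higher and 1434 lower to 5285 and 353.

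LIFR, low in shControl cells, stayed low, with 68.7 and 75.0 normalized counts in shMETTL3 libraries (log2 fold change -0.24, SE 0.20, adjusted p = 0.422). JAK1 had 469.9 and 479.5 (0.22, SE 0.13, adjusted p = 0.239) and STAT3 183.7 and 179.4 normalized counts (-0.19, SE 0.17, adjusted p = 0.44). Per kb, LIF still led in shMETTL3 cells at 28.9 ± 6.7 normalized counts (SD, n = 2), ahead of IL6ST at 14.9 ± 1.8, SOCS3 at 10.1 ± 2.5, IL6 at 8.69 ± 1.25, OSMR at 6.98 ± 0.15 and IL11 at 5.70 ± 0.77.

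Set against the control cells directly, IL6 and IL11 were still higher in shMETTL3 cells, and LIF and SOCS3 gave no call. IL6 was 3.99-fold (log2 fold change 1.99, SE 0.35, adjusted p = 4.19e-05; 6.69-fold without control replicate 2) and IL11 3.39-fold above control (1.76, SE 0.35, adjusted p = 0.000217), whereas LIF (0.17, SE 0.19, adjusted p = 0.494) and SOCS3 (-0.21, SE 0.27, adjusted p = 0.572) did not pass. As a share of the rise in mean normalized counts in shControl cells, 15.2% was left for IL6 (13.1 to 17.2% when any 1 library was left out of its mean) and 9.36% for IL11 (8.1 to 10.6%). For LIF and SOCS3 the shares were near 0 and changed sign without 1 library, from -3.62 to 12.2% and from -11.6 to 0.848%. These values carry no test because both comparisons share the control libraries. OSMR stayed 1.69-fold above control (0.76, SE 0.13, adjusted p = 4.49e-05), and LIFR 3.04-fold below it (-1.60, SE 0.17, adjusted p = 2.29e-08). IL6R (-1.74, SE 0.32, adjusted p = 9.61e-05) and STAT3 (-0.70, SE 0.16, adjusted p = 0.000761) were also lower than in control cells. JAK1 was higher, with a call near the threshold that 6 of 17 alternatives lost (0.36, SE 0.13, adjusted p = 0.0296). In this comparison 4 members were higher and 3 lower, where 20.1% of all genes tested were called higher and 20.1% lower. Of the 10 fibroblast markers 7 were lower and 1 higher than in control cells (median -1.26), MKI67 was lower, and CDKN1A was higher (0.84, SE 0.15, adjusted p = 4.21e-05). TEK was lower (-0.80, SE 0.23, adjusted p = 0.00748) and CD68 higher (1.21, SE 0.36, adjusted p = 0.00778), calls that were both lost without control replicate 2, TEK also in DESeq2 (adjusted p = 0.13) and CD68 also without shMETTL3 replicate 1.

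**Figure D2:**
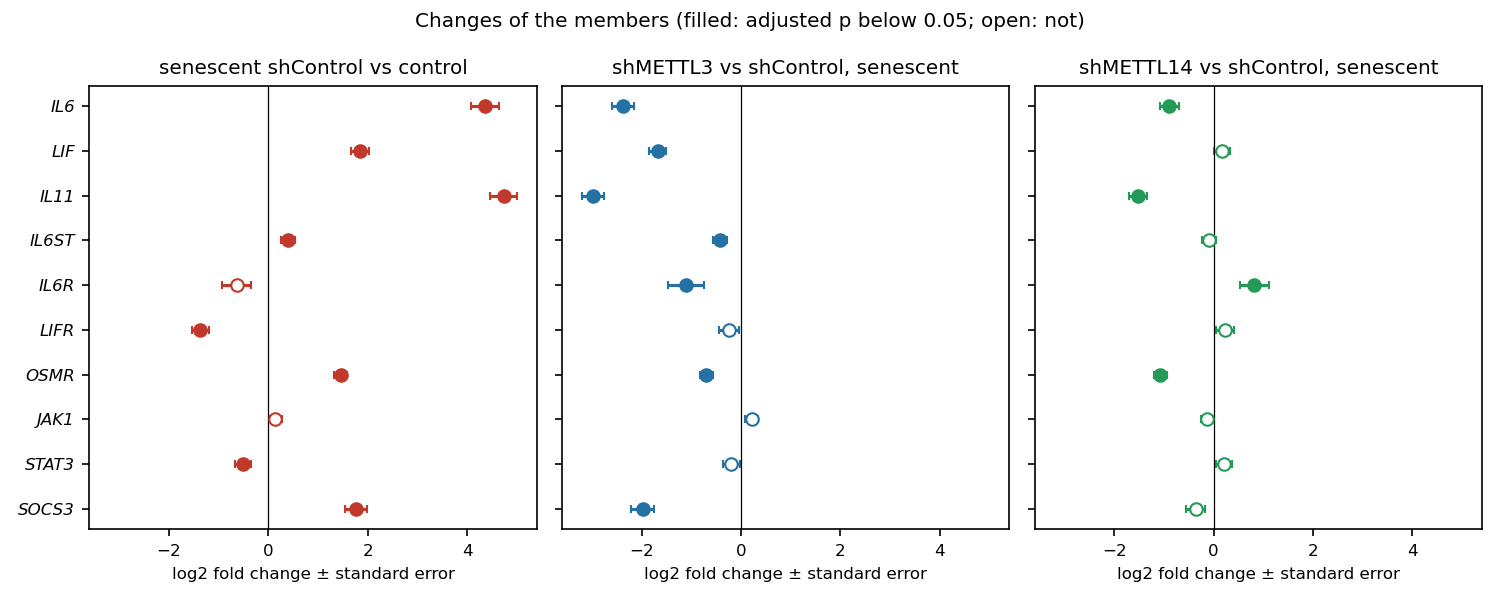
Log2 fold changes of the 10 members with standard errors (horizontal bars) in the 3 main comparisons; filled points passed an adjusted p below 0.05 in edgeR's quasi-likelihood test and open points did not. After shMETTL3 no filled point lies to the right of 0, and after shMETTL14 LIF and SOCS3 are open while IL6, IL11 and OSMR are filled on the left.

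The third comparison, shMETTL14 with shControl in senescent cells, tested the other subunit of the complex. IL11, IL6 and OSMR fell, by 1.86- to 2.87-fold, LIF and SOCS3 gave no call, and IL6R was higher with a call close to the threshold. That made 3 members lower and 1 higher of 10. Over all genes tested, 12% were called lower and 9.15% higher. The median log2 fold change of the members was -0.11, and that of all genes tested was -1e-04. Of the 10 fibroblast markers 8 fell after shMETTL14 (median -1.13), among them COL3A1 (-1.60, SE 0.21, adjusted p = 2.32e-06). CDKN1A rose again (1.01, SE 0.14, adjusted p = 6.55e-06), and TEK fell (-1.28, SE 0.32, adjusted p = 0.00481), a call lost without shControl replicate 2 or shMETTL14 replicate 1 (-1.90 without shMETTL14 replicate 2). MKI67 and LMNB1, at 5 and 2 raw counts, were called lower, LMNB1 not in 3 of 16 alternatives.

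IL11 had 111.9 and 76.9 normalized counts in shMETTL14 libraries, 2.87-fold below shControl (log2 fold change -1.52, SE 0.19, adjusted p = 1.06e-06). IL6 had 135.9 and 100, 1.86-fold lower (-0.89, SE 0.19, adjusted p = 0.0014). The IL6 call was lost when shControl replicate 1 was left out (-0.75, adjusted p = 0.0527) and with scaling by total counts alone (-0.53, adjusted p = 0.0572). OSMR, at 476.8 and 485.5 normalized counts, was 2.11-fold lower (-1.08, SE 0.13, adjusted p = 7.94e-07).

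LIF had 700.6 and 617.1 normalized counts in shMETTL14 libraries, the first above and the second between both shControl libraries (log2 fold change 0.16, SE 0.16, adjusted p = 0.534). With scaling by total counts alone, LIF was called higher (0.52, adjusted p = 0.019), and calls over all genes went from 1175 higher and 1545 lower to 3163 and 710. SOCS3 had 111.9 and 90.6 normalized counts (-0.36, SE 0.20, adjusted p = 0.204). IL6R had 68.0 and 55.8 (0.82, SE 0.29, adjusted p = 0.0448), and its call was lost in DESeq2 (adjusted p = 0.25) and when any shControl or shMETTL14 library was left out (0.65 to 0.95, adjusted p = 0.0683 to 0.317).

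LIFR had 107.9 and 90.6 normalized counts in shMETTL14 libraries (0.23, SE 0.19, adjusted p = 0.435) and IL6ST 1155 and 1105 (-0.08, SE 0.14, adjusted p = 0.724). JAK1, with 365.8 and 379.1 (-0.13, SE 0.13, adjusted p = 0.537), and STAT3, with 263.9 and 213.8 normalized counts (0.20, SE 0.16, adjusted p = 0.412), did not pass either. Per kb, LIF reached 102.9 ± 9.2 normalized counts (SD, n = 2) in shMETTL14 cells, ahead of SOCS3 at 30.7 ± 4.6, IL6 at 24.3 ± 5.2, IL6ST at 18.9 ± 0.6 and IL11 at 15.5 ± 4.1.

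Against control cells, the cytokine genes and SOCS3 remained well above baseline in shMETTL14 cells. IL6 was 11.1-fold (log2 fold change 3.47, SE 0.30, adjusted p = 3.22e-10; 18.7-fold without control replicate 2), IL11 9.27-fold (3.21, SE 0.30, adjusted p = 1.48e-09), LIF 4.02-fold (2.01, SE 0.18, adjusted p = 5.08e-10) and SOCS3 2.65-fold higher (1.41, SE 0.23, adjusted p = 1.33e-05). The share of the shControl rise that was left came to 51.4% for IL6 (42.8 to 60.0% when any 1 library was left out), 32.2% for IL11 (25.5 to 38.9%), 116% for LIF (105 to 130%) and 68.3% for SOCS3 (56.7 to 80.2%). For OSMR it was 17.1% (15 to 19.1%), against 39.7% (37.7 to 41.9%) after shMETTL3. OSMR was 1.3-fold above control (0.38, SE 0.13, adjusted p = 0.027), a call lost when any control or shMETTL14 library was left out (0.32 to 0.44, adjusted p = 0.0581 to 0.215), and LIFR 2.2-fold below it (-1.14, SE 0.17, adjusted p = 3.52e-06). In all, 5 members were higher and 1 lower, where 19.7% of all genes tested were called higher and 20.5% lower. Of the fibroblast markers 8 were lower and 1 higher (median -1.89), CDKN1A (2.13, SE 0.15, adjusted p = 5.25e-12) and CD68 (1.68, SE 0.34, adjusted p = 0.000247) were higher, and MKI67 and TEK (-2.31, SE 0.28, adjusted p = 1.81e-07; -2.92 without shMETTL14 replicate 2) were lower.

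**Figure D3:**
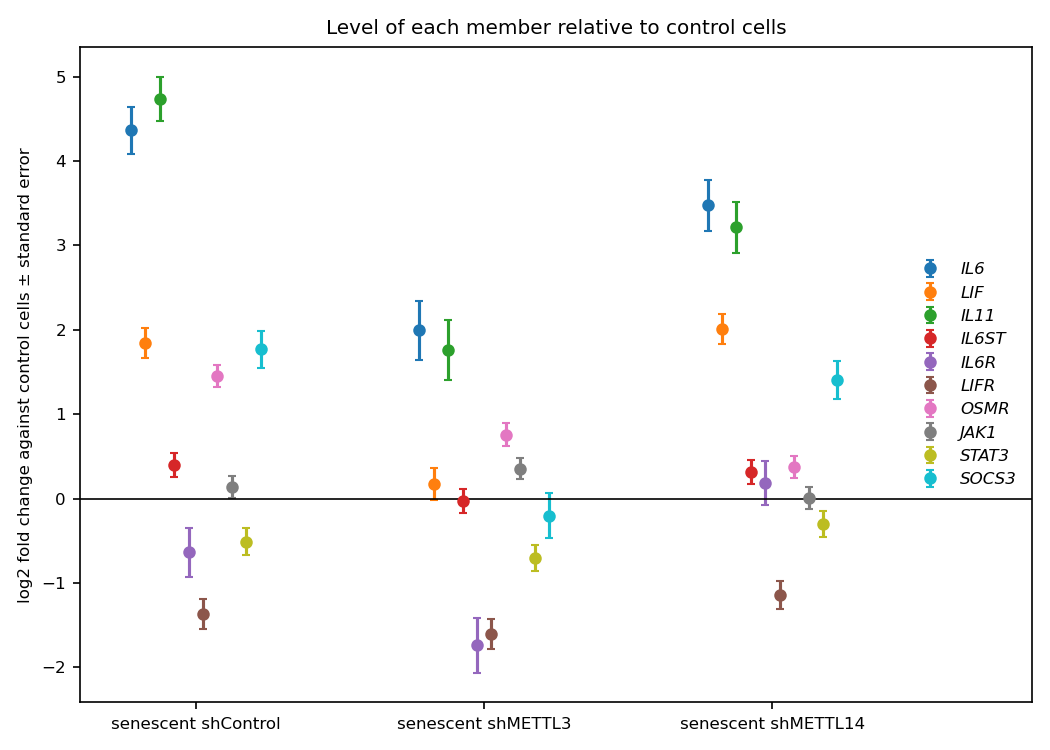
Log2 fold change of each member against control cells, with standard errors, in the 3 senescent groups; the line at 0 is the control level. LIF and SOCS3 sit near 0 in shMETTL3 cells and near 2 and 1.41 in shMETTL14 cells, LIFR lies below -1 in all 3 groups, and the groups share the same control libraries.

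Because a call in one knockdown and none in the other does not show a difference, shMETTL14 was tested against shMETTL3 directly. IL6R (log2 difference 1.92, SE 0.32, adjusted p = 4.11e-05), LIF (1.83, SE 0.18, adjusted p = 1.22e-08), SOCS3 (1.61, SE 0.24, adjusted p = 6.21e-06), IL6 (1.48, SE 0.24, adjusted p = 2e-05) and IL11 (1.45, SE 0.24, adjusted p = 3.6e-05) were all higher in shMETTL14 cells. OSMR (-0.38, SE 0.13, adjusted p = 0.0259) and JAK1 (-0.35, SE 0.13, adjusted p = 0.0382) were lower, with calls that 8 and 11 of 17 alternatives lost. IL6ST, LIFR and STAT3 missed the threshold, each with an adjusted p of 0.0584. These 5 higher and 2 lower members compare with 16.5% of all genes tested called higher and 18.7% lower. Of the fibroblast markers 7 were lower and 1 higher in shMETTL14 than in shMETTL3 cells (median -0.95), among them COL3A1 (-1.62, SE 0.21, adjusted p = 9.42e-07). TEK was also lower (-1.52, SE 0.30, adjusted p = 0.000321, and -2.13 without shMETTL14 replicate 2). Of the 6 senescence markers 1 was higher, CDKN1A (1.29, SE 0.14, adjusted p = 1.05e-07), and 1 was lower. The ratio of OSMR to LIFR per kb was 12.4 and 11 in shMETTL3 and 5.92 and 7.19 in shMETTL14 libraries.

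Over the 8 libraries, the members fell into a few shapes. LIF and SOCS3 had the most alike profiles of any pair that includes a cytokine: the root mean square difference between their centred log2 values was 0.293, the smallest for LIF among 6317 candidate genes. ODC1, which starts polyamine synthesis, followed at 0.373 and the metallothionein gene MT2A at 0.386. The gene closest to IL6 was CSMD2 at 0.512, followed by IL11 at 0.537 and TNFRSF10D, a decoy receptor for TRAIL, at 0.571. For IL11 the order was IL6 at 0.537, CSMD2 at 0.735 and TNFRSF10D at 0.754. By the same measure LIF differed from IL6 by 0.98 and from IL11 by 0.972, nearly as much as SOCS3 did, at 1.031 and 1.038. These values describe 8 libraries of 4 groups and carry no test.

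Some members share counted bases with other genes, and overlapping genes on opposite strands may share reads in these counts. IL6 shares 479 bases, 9.85% of its span, with LOC541472, a non-coding gene on the minus strand at chr7:22765014-22767239. LOC541472 had 3 and 6 raw counts in control, 52 and 56 in shControl, 9 and 3 in shMETTL3, and 54 and 26 in shMETTL14 libraries. It rose in senescence (log2 fold change 3.93, SE 0.47, adjusted p = 2.42e-07) and fell after shMETTL3 (-3.36, SE 0.45, adjusted p = 3.37e-06; -4.40 without shMETTL3 replicate 1). After shMETTL14 it was not called (-0.60, SE 0.33, adjusted p = 0.205). LIF shares 642 bases with LOC91370, whose 13 and 10 control counts and 34 and 38 shControl counts also rose (2.02, SE 0.38, adjusted p = 0.000165), and which fell after shMETTL3 (-1.52, SE 0.36, adjusted p = 0.00303; -2.12 without shMETTL3 replicate 1). Taking all counts of such partners away from IL6 left 4 and 11 raw counts in control, 151 and 123 in shControl, 28 and 46 in shMETTL3, and 82 and 69 in shMETTL14 libraries, and every cytokine call above held. IL11, OSMR, IL6ST, STAT3 and SOCS3 share no bases with another gene of the table.

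The nearest genes on either side of each member were also read. Next to IL6, TOMM7, a subunit of the mitochondrial import machinery, had 50 and 49 raw counts in control and 39 and 55 in shControl libraries (log2 fold change 0.31, SE 0.26, adjusted p = 0.419). OSM, the gene of oncostatin M, lies 15977 bases from LIF and had 0 or 1 count in every library. FAM71E2 and TMEM190, on either side of IL11, likewise had 0 or 1 count. RICTOR, a subunit of mTOR complex 2 that lies 2280 bases from OSMR, rose in senescence (0.60, SE 0.15, adjusted p = 0.00232), though not without control replicate 1 or with scaling by total counts alone, and rose further after shMETTL3 (0.84, SE 0.14, adjusted p = 6.4e-05). IL31RA, 12243 bases from IL6ST, encodes a gp130-like chain that pairs with OSMR to bind interleukin-31, and it rose from 7 and 5 raw counts in control to 22 and 21 in shControl libraries (2.20, SE 0.48, adjusted p = 0.000854). CAVIN1, a structural protein of caveolae next to STAT3, fell in senescence (-0.73, SE 0.14, adjusted p = 0.000157) and after shMETTL3 (-1.57, SE 0.15, adjusted p = 2.04e-08), and rose after shMETTL14 (0.66, SE 0.14, adjusted p = 0.000864). After either knockdown TOMM7 and IL31RA, and after shMETTL14 RICTOR, gave no call (adjusted p = 0.0504 to 0.972). STAT5A, on the other side, had 13 or fewer counts per library and was not tested.

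Beyond the members, 37 further genes of the pathway were examined, of which 24 passed the filter. In senescent shControl cells 5 rose and 4 fell. After shMETTL3, 4 rose and 5 fell, and after shMETTL14, 5 rose and 2 fell. The shares called are 20.8% and 16.7%, 16.7% and 20.8%, and 20.8% and 8.33% of the genes tested, to be read against the shares of all genes given above. Their median log2 fold changes were -0.01, -0.26 and 0.40.

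Of the other gp130 cytokines, only CLCF1 and CNTF passed the filter, and IL27 had no count in any library. CLCF1, a ligand of the ciliary neurotrophic factor receptor, was called lower in senescence (log2 fold change -1.38, SE 0.41, adjusted p = 0.0134), but not in DESeq2 (adjusted p = 0.135) or without control replicate 1 or shControl replicate 1. CNTF had 2 and 3 raw counts in shControl and 12 and 16 in shMETTL3 libraries and was called higher (2.22, SE 0.71, adjusted p = 0.0246), but not without either shControl library, shMETTL3 replicate 2 or shMETTL14 replicate 1 (adjusted p of at most 0.196). The interleukin-11 chain IL11RA had 17 and 15 raw counts in control, 5 in each shControl library, 6 and 7 in shMETTL3 and 2 in each shMETTL14 library, and gave no call in the main comparisons.

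Among the other kinases and STATs, STAT5B was called lower in senescence (-0.73, SE 0.24, adjusted p = 0.0216), a call lost in DESeq2 (adjusted p = 0.178) and without control replicate 2 or shControl replicate 1. JAK2 was called higher after shMETTL3 (0.56, SE 0.17, adjusted p = 0.0212), which 5 of 17 alternatives lost, among them DESeq2 (adjusted p = 0.101) and leaving out either shControl library. Among the other inhibitors and phosphatases, 2 of 5 were called in the 3 main comparisons, both lower after shMETTL3: PIAS3, which binds active STAT3 (-1.10, SE 0.32, adjusted p = 0.0134), and PTPN11, the SHP2 phosphatase recruited by gp130 (-0.63, SE 0.14, adjusted p = 0.00147). The PIAS3 call was lost in 4 of 17 alternatives, DESeq2 included (adjusted p = 0.103), and the PTPN11 call with scaling by total counts alone (adjusted p = 0.948). SOCS1 and SOCS2, the relatives of SOCS3, had at most 18 raw counts per library and no call in the main comparisons. The 2 proteases that shed the interleukin-6 receptor differed: ADAM10 fell after shMETTL14 (-1.12, SE 0.15, adjusted p = 2.7e-06), while ADAM17 rose after shMETTL3 (0.56, SE 0.16, adjusted p = 0.0097) and after shMETTL14 (0.65, SE 0.16, adjusted p = 0.00353). The ADAM17 calls were lost in 4 and 2 of 17 alternatives, the first in DESeq2 (adjusted p = 0.0515) and both without shControl replicate 1. ADAM10 was also called lower in senescence (-0.41, SE 0.14, adjusted p = 0.0297), which DESeq2 (adjusted p = 0.115) and leaving out any control or shControl library did not keep.

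Of 12 known STAT3 target genes 9 were tested, and the liver acute-phase genes HP and LBP had no count in any library. In senescence 4 rose and 1 fell, or 44.4% and 11.1% of those tested, beside 13.3% and 13.3% of all genes. TIMP1, an inhibitor of metalloproteinases, rose from 281.6 and 287.4 normalized counts in control to 1900 and 1738 in shControl libraries (log2 fold change 2.68, SE 0.17, adjusted p = 8.78e-13). MCL1, which protects cells from apoptosis, rose from 290.5 and 296.9 to 1265 and 1104 (2.01, SE 0.14, adjusted p = 1.24e-11). MYC (0.99, SE 0.26, adjusted p = 0.00547) and JUNB (0.75, SE 0.22, adjusted p = 0.0125) rose less, and the kinase gene PIM1, with 5 and 10 raw counts in shControl libraries, was lower (-1.48, SE 0.47, adjusted p = 0.0199). These calls were lost in 3 of 17, 5 of 17 and 4 of 16 alternatives, each without control replicate 2, JUNB and PIM1 also without control replicate 1 or shControl replicate 1 and in DESeq2 (adjusted p = 0.1 and 0.184), and MYC without shControl replicate 2.

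After shMETTL3, 3 of the targets fell and 1 rose, or 33.3% and 11.1%, beside 11.2% and 12.2% of all genes. TIMP1 went to 1226 and 847.9 normalized counts (-0.81, SE 0.15, adjusted p = 0.000286), MCL1 to 797.2 and 762.4 (-0.60, SE 0.13, adjusted p = 0.00148), and SBNO2, a transcriptional co-regulator, to 59.5 and 38.9 (-1.06, SE 0.22, adjusted p = 0.000667). BCL2L1, which encodes the survival protein BCL-XL, rose (0.85, SE 0.15, adjusted p = 0.000123). With scaling by total counts alone the 3 falls were not called (adjusted p = 0.138 to 0.95), and MCL1 was not called without shControl replicate 1. After shMETTL14, 4 of the targets rose, 44.4% beside 9.15% of all genes: BCL2L1 (0.96, SE 0.15, adjusted p = 2.31e-05), MYC (0.83, SE 0.22, adjusted p = 0.00831), SBNO2 (0.55, SE 0.19, adjusted p = 0.036) and TIMP1, at 2819 and 2434 normalized counts (0.53, SE 0.15, adjusted p = 0.0124). Of these, BCL2L1 alone was called in every alternative, while MYC, SBNO2 and TIMP1 lost their calls without either shControl library or shMETTL14 replicate 1, and MYC and SBNO2 in DESeq2 (adjusted p = 0.105 and 0.229). Tested directly, 5 of the 9 targets were higher in shMETTL14 than in shMETTL3 cells, 55.6% beside 16.5% of all genes, among them SBNO2 (1.61, SE 0.20, adjusted p = 7.85e-07) and TIMP1 (1.34, SE 0.15, adjusted p = 1.71e-07).

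**Figure D4:**
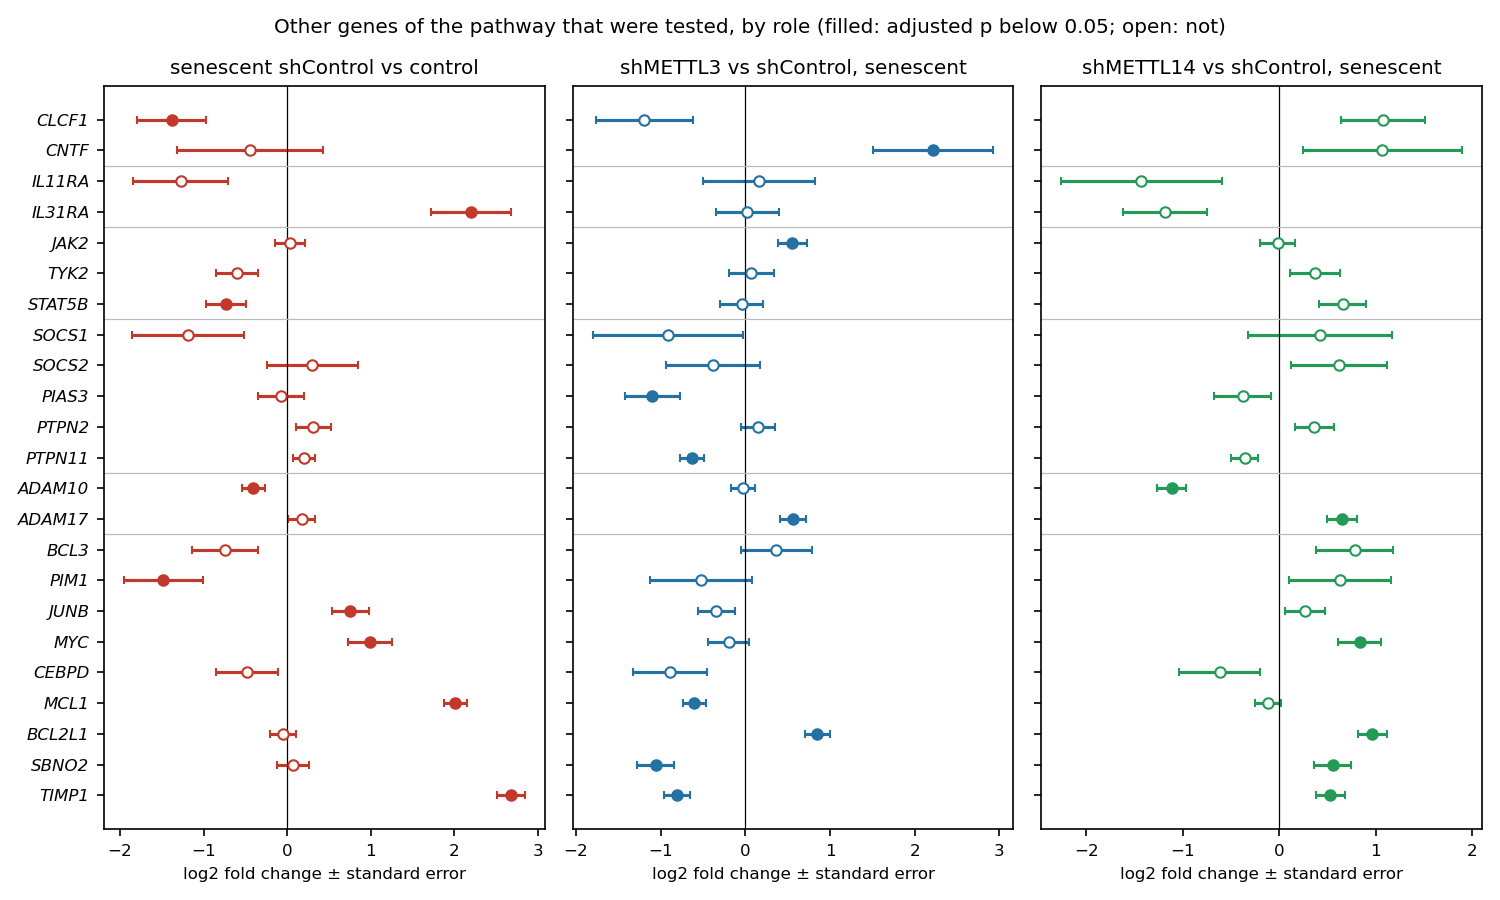
Log2 fold changes with standard errors of 23 of the 24 other pathway genes that passed the filter, in the 3 main comparisons, each with its own axis range; grey lines separate, from the top, cytokines, receptor chains, kinases and STATs, inhibitors and phosphatases, shedding proteases and STAT3 targets, and filled points passed an adjusted p below 0.05. TIMP1 and MCL1 rise most in senescence together with IL31RA, and TIMP1 and SBNO2 lie left of 0 after shMETTL3 and right of 0 after shMETTL14.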

How the data were processed

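fastGRO-seq libraries were aligned by the submitters to hg19 with STAR, and the deposited values are raw counts over whole gene bodies from HOMER, which per the file headers was run with its strand option set to the opposite strand. In 60 of 61 pairs of a gene nested in one on the other strand, with a mean of at least 100 counts, the outer gene had at least the inner gene's count in all libraries, so overlapping genes may share reads. The Drosophila spike-in and depth-normalized tracks were not used here. Groups follow the labels, although the design text of the series names METTL4 where they name METTL14. A model with 4 groups of 2 libraries was fitted to all 8 libraries with edgeR 4.0.16 (R 4.3.3; TMM normalization, filterByExpr with a minimum count of 10, quasi-likelihood F-test, Benjamini-Hochberg adjusted p below 0.05, two-sided), leaving 12844 of 27945 genes; 6423 genes had no count. The biological coefficient of variation was 10.6%. DESeq2 1.42.0, other scalings and filters and leaving out each library were alternatives; the ranges of the shares of a rise left after knockdown, and the alternatives for single genes that are not members, were added after seeing the data. Named genes were the 10 members, METTL3 and METTL14, genes sharing bases with or next to a member, the largest called rise and fall in each other list, and the 3 genes closest in profile to each cytokine (mean of at least 50 counts); further list members were named after their values were seen. The members and lists were chosen with earlier results of these data known. A few genes of these lists count in their totals but are not reported here.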

Additional observations from a re-analysis of the deposited data

Results flagged for a closer look

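The effect of the knockdown on 7 members differed between shMETTL14 and shMETTL3 when the groups were tested directly. Of the 10 members 5 were higher and 2 lower in shMETTL14 cells, where 16.5% of all genes tested were called higher and 18.7% lower. On the log2 scale, shMETTL14 minus shMETTL3, the differences were 1.92 for IL6R, 1.83 for LIF, 1.61 for SOCS3, 1.48 for IL6, 1.45 for IL11, -0.38 for OSMR and -0.35 for JAK1, with edgeR adjusted p-values from 1.22e-08 to 0.0382. The OSMR and JAK1 calls were lost in 8 and 11 of 17 alternatives, among them leaving out either shMETTL14 library. All 4 libraries separate in each of these genes, with 2 on either side. No share of all genes is given for this, and it adds no support to the calls. In the same comparison 7 of 10 fibroblast markers were lower and 1 higher (median log2 difference -0.95). Of the 6 senescence markers 1 was higher, CDKN1A (1.29), and 1 was lower. The part of these shifts was not tested. The shMETTL3 pair varied more than the other pairs, with a variance between replicates of 7.15 times the sampling noise, against 3.55 for shMETTL14, 1.97 for control and 1.72 for shControl, and its part in the differences was not tested.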

How the results depend on the processing

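Across alternatives, the rises of IL6, LIF, IL11, OSMR and SOCS3 and the fall of LIFR in senescence, the falls of IL6, LIF, IL11 and SOCS3 after shMETTL3, and the falls of IL11 and OSMR after shMETTL14 kept their direction and call wherever the gene could be tested; IL6 and IL11 could not be tested with at least 10 counts in every library. In all, 912 single-gene values stayed on the same side, 55 lost and 17 gained the call, and 24 changed sign. With at least 10 counts in every library, members called were 3 higher in senescence, 1 lower after shMETTL14, 1 higher in shMETTL3 and 3 higher in shMETTL14 than in control, and other pathway genes 2 lower in senescence. Over the 9367 genes of that filter, calls were 1291 higher and 1371 lower in senescence and 1275 lower after shMETTL14. Against control, 1890 were higher in shMETTL3 and 1890 in shMETTL14 cells. DESeq2 called 1 member lower in senescence, 0 higher after shMETTL14 and 1 lower in shMETTL14 than shMETTL3, and of the other genes 0 lower in senescence, 1 higher after shMETTL3 and 3 higher after shMETTL14. Over all genes it called 1145 higher and 795 lower, 911 and 644, and 489 and 878 in the 3 main comparisons, and 1607 lower in shMETTL14 than shMETTL3. With library size alone, members were 1 higher and 4 lower after shMETTL3 and 3 higher after shMETTL14, and other genes 3 higher and 10 lower in senescence, 7 and 0 after shMETTL3 and 11 and 1 after shMETTL14. Upper quartile normalization gave 8 members higher and 1 lower in shMETTL14 than shMETTL3, no filter 1 lower, and a fit of the 2 groups alone 0 lower, with 4 other genes lower after shMETTL14. In shMETTL14 against shMETTL3, these settings called 2348 genes higher and 2226 lower of 12844, 2353 lower of 21522, and 1898 lower of 11659. The fit of the 2 groups alone called 1857 of 11626 genes lower after shMETTL14. At an adjusted p below 0.01, members were 1 lower in senescence, 0 higher after shMETTL14 and 0 lower against shMETTL3, and other genes 0 lower in senescence, 2 higher after shMETTL3 and 3 after shMETTL14. An adjusted p below 0.05 together with a change of 1 or more on the log2 scale left members 1 lower in senescence, 0 higher after shMETTL14, 2 higher in shMETTL3 than control and 0 lower in shMETTL14 than shMETTL3, and other genes 3 higher and 2 lower in senescence, 1 and 2 after shMETTL3 and 0 and 1 after shMETTL14. Calls over all genes at these 2 thresholds are not given. Leaving out 1 library moved the members called from 5 to 6 higher and 1 to 3 lower in senescence, 0 higher and 5 to 7 lower after shMETTL3, 0 to 1 higher and 2 to 3 lower after shMETTL14, 3 to 4 higher and 3 lower in shMETTL3 than control, 4 to 6 higher and 1 lower in shMETTL14 than control, and 5 to 6 higher and 0 to 1 lower in shMETTL14 than shMETTL3. The other genes ranged from 3 to 6 higher and 0 to 5 lower in senescence, 1 to 4 and 3 to 7 after shMETTL3, and 1 to 7 and 2 to 4 after shMETTL14. Signs changed only for values without a call, or called near the threshold. With library size alone these were, in senescence, IL6ST -0.10 and JAK1 -0.36; after shMETTL3, IL6ST 0.20, LIFR 0.38 and STAT3 0.42; after shMETTL14, IL6ST 0.27 and JAK1 0.22; against control, IL6ST 0.10 in shMETTL3 and JAK1 -0.14 in shMETTL14. In shMETTL3 against control, IL6ST was 0.0084 in DESeq2 and 0.019 with ribosomal rows removed, and in shMETTL14 against control JAK1 was -0.022 with upper quartile and -0.028 with at least 10 counts. Leaving out a library took STAT3 from -0.43 to 0.070 after shMETTL3, IL6ST from -0.21 to 0.05 and STAT3 from -0.022 to 0.47 after shMETTL14, LIF from -0.11 to 0.51, IL6ST from -0.16 to 0.085 and SOCS3 from -0.47 to 0.023 in shMETTL3 against control, and IL6R from -0.14 to 0.60 and JAK1 from -0.010 to 0.047 in shMETTL14 against control. Deviations by replicate number correlated from -0.0624 to 0.261 between groups, highest between control and shMETTL3, and the labels do not say whether the numbers pair libraries. The replicate block changed no call of a member, with 6 higher and 2 lower in senescence, 7 lower after shMETTL3, and 1 higher and 3 lower after shMETTL14. Over all genes it called 1731 higher and 1673 lower, 1563 and 1445, and 1168 and 1530 in these comparisons. Subtracting overlapping counts, an alternative chosen after seeing the data, added LIFR as higher in shMETTL14 than shMETTL3 (adjusted p = 0.0476). Depth limits IL6, IL11 and IL6R, whose counts fell to 20 or fewer in some libraries. The cause of these changes was not tested.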
